A study of Mus musculus with 18 samples.

Results

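The heat shock, DnaJ and chaperonin genes of the mouse were described here in dorsal root ganglia (DRG), the ganglia that hold the cell bodies of sensory neurons. Members were taken by gene name from the deposited table: names starting with Hspa, Hspb, Hspd, Hspe or Hsph, with Hsp90, with Dnaja, Dnajb or Dnajc, or with Cct and a digit from 2 to 8, together with Tcp1, and without a hyphen. The rule found 84 genes, and 74 of them reached 1 CPM, a count per 1000000 counted reads, in at least 4 of 16 pooled libraries, out of 14214 genes that passed this filter and 22021 genes listed. The 74 comprise 3 genes of the Hsp90 family, 11 of the Hsp70 family, 3 of the Hsp110 group, 6 small heat shock protein genes, both genes of the mitochondrial chaperonin, 7 subunit genes of the cytosolic chaperonin, 40 DnaJ genes, and Hspbp1 and Hspbap1. Of the 10 that missed the filter, Dnajb8, Dnajc5g, Cct8l1 and Hspb9 were listed at 0 in every library. Cct6b, Dnajb7, Hspa1l, Dnajc22, Dnajb13 and Hspb3 were the other members left out. Hspb3 came nearest, with 0.63 CPM in the fourth-highest of its libraries, and Hspb7 was the member just inside, with 2.0 CPM in the fourth-highest of its.

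All mice carried Nav1.8-cre, a Cre recombinase under the Scn10a promoter, and the Rosa26fsTRAP allele on a C57BL/6J background, so that EGFP-L10a, a tagged ribosomal protein, was made in neurons that express Nav1.8, mostly nociceptors. They were males and females of 8 to 12 weeks. The paclitaxel group received the chemotherapy drug intraperitoneally at 4 mg/kg in cremaphor vehicle every other day for 8 days, 4 injections and 16 mg/kg in all, as a model of chemotherapy-induced painful neuropathy. The other group is labelled normal, and the labels do not state whether these animals received vehicle. From each homogenate, ribosome-bound RNA was pulled down with anti-GFP antibodies (translating ribosome affinity purification, TRAP), and a sample of the same post-mitochondrial fraction was kept as input, which holds RNA of all cells of the ganglion. There were 4 paclitaxel biosamples, numbered 5 to 8, and 4 normal ones, numbered 1 to 4, each with a TRAP and an input library, and values by library are given in that order. The number of animals in a biosample is not stated in the labels, so p-values measure the spread between biosamples.

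Heat shock proteins are molecular chaperones, named for their synthesis in heated cells, which bind unfolded or partly folded proteins. Hsp70 proteins cycle between states with bound ATP and ADP: DnaJ proteins (Hsp40) deliver the client and trigger ATP hydrolysis, and Hsp110 proteins exchange the nucleotide. Hsp90 acts later on nearly folded clients such as kinases and steroid receptors, and the ring-shaped chaperonin CCT (TRiC) encloses actin and tubulin while they fold. Tubulin is the target of paclitaxel, which stabilises microtubules. In sensory neurons the small heat shock protein HSPB1 (Hsp27) is known to rise after nerve injury, and variants of HSPB1 and HSPB8 cause inherited motor and sensory neuropathies in humans.

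The inducible members are classically switched on by heat shock factor, which binds inverted repeats of the unit GAA, so the promoters were searched for GAANNTTC or TTCNNGAA (2 units) and for GAANNTTCNNGAA or TTCNNGAANNTTC (3 units), where N is any base. Each of these letter strings was read on both strands, and a 3-unit match contains 2-unit matches. RefSeq promoter windows of 300 bases (build GRCm38.p6, 250 bases before the start to 50 after) were at hand for 59 of the member names, 78 windows in all. Hsp90aa1, Hsp90ab1 and Hspa8 were among the members without a window. A 2-unit match stood in 18 of 78 member windows (23.1%), against 4946 of all 32851 windows (15.1%). Neither window of Dnajb1 held a match. A 3-unit match stood in 6 of 78 (7.69%), windows of Dnajb6, Hspd1, Hspe1 and Hsph1, against 198 of all windows (0.603%). These 6 windows overlap in pairs: those of Dnajb6, those of Hsph1, and that of Hspd1 with that of Hspe1. Shared letters are thus counted more than once in the 7.69% and in the 23.1%. The windows of 4 members to which the values below return are printed with the matches in capitals: Hspb1, the neuropathy gene, at chr5:135887669-135887968 on the plus strand, with matches that start 117 and 97 bases before the start; Hspe1, at chr1:55087898-55088197 on the plus strand, with a merged match from 89 bases before the start, whose window overlaps that of the divergent neighbour Hspd1; Hsph1, at chr5:149636287-149636586 on the minus strand, with matches 33 bases before and 36 after the start; and Cct8, at chr16:87495820-87496119 on the minus strand, with no match in these letters.
Hspb1: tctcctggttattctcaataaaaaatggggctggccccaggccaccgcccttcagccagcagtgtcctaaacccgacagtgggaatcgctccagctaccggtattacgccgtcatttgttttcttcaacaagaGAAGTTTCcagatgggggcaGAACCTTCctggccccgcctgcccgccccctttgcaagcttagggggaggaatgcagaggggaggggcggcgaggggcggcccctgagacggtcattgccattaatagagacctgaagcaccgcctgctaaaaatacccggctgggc
Hspe1: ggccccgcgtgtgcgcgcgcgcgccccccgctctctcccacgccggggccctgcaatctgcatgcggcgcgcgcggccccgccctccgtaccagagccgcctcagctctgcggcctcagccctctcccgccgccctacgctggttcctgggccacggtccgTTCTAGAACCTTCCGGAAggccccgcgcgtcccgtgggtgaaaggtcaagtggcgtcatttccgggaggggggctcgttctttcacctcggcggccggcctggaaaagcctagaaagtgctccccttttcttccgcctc
Hsph1: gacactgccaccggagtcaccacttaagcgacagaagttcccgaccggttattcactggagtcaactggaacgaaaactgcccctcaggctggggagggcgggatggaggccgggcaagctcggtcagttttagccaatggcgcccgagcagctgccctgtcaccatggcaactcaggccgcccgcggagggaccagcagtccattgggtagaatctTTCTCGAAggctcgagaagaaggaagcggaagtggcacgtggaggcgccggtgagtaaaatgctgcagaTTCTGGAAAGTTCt
Cct8: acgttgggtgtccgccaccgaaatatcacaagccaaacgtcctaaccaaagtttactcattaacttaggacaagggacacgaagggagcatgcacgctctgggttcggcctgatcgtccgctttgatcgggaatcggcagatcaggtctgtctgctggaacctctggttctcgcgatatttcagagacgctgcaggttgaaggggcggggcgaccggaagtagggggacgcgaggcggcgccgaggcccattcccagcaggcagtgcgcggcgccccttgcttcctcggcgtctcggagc
A match is a description of the letters and not of binding.

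The 18 libraries held 5972326 to 32713113 counted reads for TRAP and 4265972 to 14477561 for input, and 3 reads came to 0.0917 to 0.502 CPM and 0.207 to 0.703 CPM. Biosample 7 was assayed as 2 subsamples, which were averaged. TRAP libraries reached 1 CPM in 8081 to 13228 genes and inputs in 13152 to 14043, and among undivided TRAP libraries those of biosamples 1, 2, 5 and 6 reached it in fewer genes (9715 to 10884) than those of biosamples 3, 4 and 8 (12076 to 13228). Of the subsamples of biosample 7, the first TRAP library reached it in 8081 genes and the second in 11945. Scn10a, which drives the tag, averaged 1405 ± 297 CPM in paclitaxel TRAP and 562 ± 76.4 CPM in paclitaxel input (SD, n = 4 each; log2 change 1.30, adjusted p = 6.81e-05), and 1002 ± 338 CPM in normal TRAP and 666 ± 248 CPM in normal input (log2 change 0.59, adjusted p = 0.0267). Of 12 myelinating Schwann cell markers, 11 fell in TRAP in each condition, with a summed level of 2173 to 2914 CPM in paclitaxel TRAP, 7061 to 9229 CPM in paclitaxel input, 2034 to 3267 CPM in normal TRAP and 6123 to 10933 CPM in normal input. Of 15 nociceptor markers, 9 rose and 0 fell in paclitaxel TRAP (limma, 0 also at unadjusted p under 0.05), while 3 rose and 2 fell in normal TRAP. Over all genes 4.92% rose and 23% fell in paclitaxel TRAP, and 5.09% rose and 24.7% fell in normal TRAP.

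The chaperone set held the most abundant message of most libraries. Together the 74 members took 2.05% to 2.49% of counted reads in paclitaxel TRAP, 1.7% to 2.08% in paclitaxel input, 3.35% to 3.92% in normal TRAP and 1.99% to 2.8% in normal input. The paclitaxel and normal TRAP ranges did not overlap, and those of the inputs did. Hsp90ab1 (chr17:45567775-45573271), which encodes the constitutive cytosolic Hsp90, was the most abundant listed gene in 11 of 16 pooled libraries and ranked no lower than 3 in any. Without it, the other members took 1.28% to 1.46% in paclitaxel TRAP, 1.08% to 1.16% in paclitaxel input, 1.6% to 2.15% in normal TRAP and 1.1% to 1.34% in normal input, and the 2 TRAP groups again did not overlap. Such a share is weighted by the most abundant members and does not describe most of them. In paclitaxel TRAP against normal TRAP 45 of 74 members had a positive log2 change, with a median of 0.24 (all genes, 0.17). Since reads were taken from 3′ ends, a level in CPM needs no division by gene length, and levels of different genes are shares of 3′ ends.

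**Figure D1:**
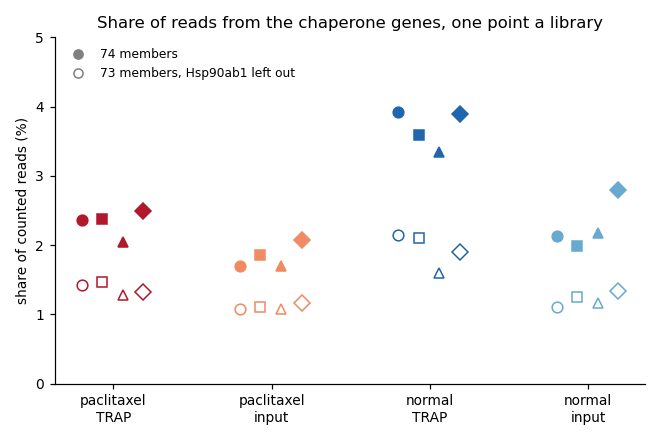
Share of counted reads (%, vertical axis) taken by the 74 members (filled) and by the members without Hsp90ab1 (open) in each of 16 pooled libraries, by group. The normal TRAP libraries lie at 3.35% to 3.92%, above the paclitaxel TRAP libraries at 2.05% to 2.49%.

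The first comparison asked which chaperone mRNAs the tagged ribosomes of Nav1.8 neurons carried at a higher or lower share than the whole ganglion. In paclitaxel TRAP against paclitaxel input, 9 of 74 members rose (4.92% of all genes) and 7 fell (23% of all genes) at an adjusted p under 0.05 in limma, which called 27.9% of all genes in either direction. In normal TRAP against normal input, 10 rose (5.09% of all genes) and 10 fell (24.7% of all genes), where 29.8% of all genes were called in either direction. Of the 7 that fell after paclitaxel, Hspb7 reached the level filter only through the paclitaxel inputs, where it is high, and 6 fell without it. After paclitaxel 11 members lay wholly above input in TRAP (6.21% of all genes) and 10 wholly below (25.1%), Hspb7 among these 10. In normal ganglia 12 lay wholly above (3.98%) and 8 wholly below (19%). The share that rose, 12.2% and 13.5% of members, was above that of all genes. The share that fell, 9.46% with Hspb7 counted and 13.5%, was below that of all genes. The median log2 change was -0.20 over members and -0.56 over all genes after paclitaxel, and -0.38 and -0.66 in normal ganglia. Hsp90aa1, Hspb8, Cct5, Cct7, Cct8 and Dnajc2 rose in both conditions, and Hspb6, Dnajb4 and Hspa4l fell in both. Median-ratio scaling moved the median of all genes by 0.27 and 0.33. Under it members split 16 higher to 4 lower after paclitaxel and 20 higher to 4 lower in normal ganglia. Thus 80% and 83.3% of called members were higher under that scaling, against 56.2% and 50% on the deposited scale. Over all called genes 39.3% and 45.1% were higher under it, against 17.6% and 17.1%, so the split depends on the scale for members and for all genes. Leaving out biosample 6 left 4 members higher and 4 lower after paclitaxel, and leaving out biosample 5 left 6 higher and 2 lower. Over all genes 379 rose and 1670 fell without biosample 6, and 394 rose and 1737 fell without biosample 5, against 699 and 3264 in the main fit. With only biosamples 3, 4, 7 and 8, 6 rose and 2 fell after paclitaxel (all genes, 411 and 1434). In normal ganglia 9 rose and 4 fell in that fit (all genes, 530 and 1863). Without the intensity trend 4 rose and 6 fell after paclitaxel (all genes, 349 and 2545). The rises of Cct4, Cct5, Cct8, Dnajc2, Hspa8 and Hspe1 and the falls of Dnajc13 and Hspa4l were lost, while further calls arose in each direction. In normal ganglia 7 rose and 7 fell without the trend (all genes, 486 and 2646). The rises of Dnajc2, Hsp90ab1, Hspa9 and Hspb8 and the falls of Dnajc5, Dnajc19, Hspa5, Hspb1 and Hspd1 were lost there. The runs named below as ending a call are not always all that did.

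**Figure D2:**
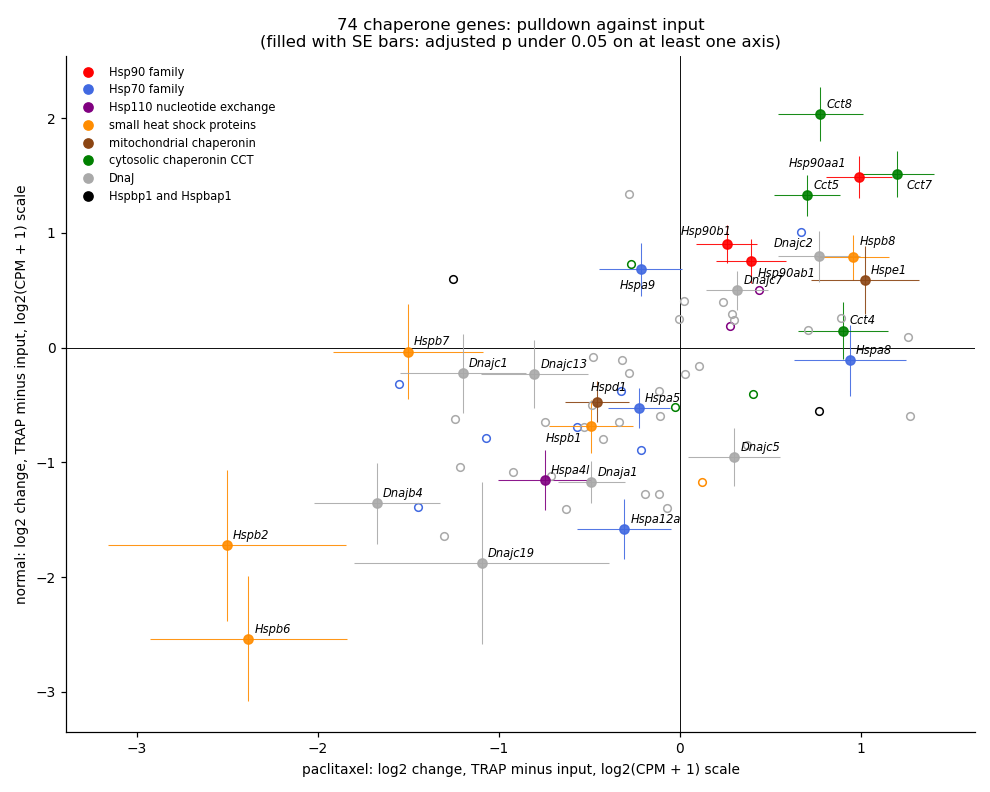
Log2 change of TRAP minus input on the log2(CPM + 1) scale for the 74 members after paclitaxel (horizontal) and in normal ganglia (vertical), coloured by family; filled points with SE bars passed an adjusted p of 0.05 on at least 1 axis, Hspb7 among them, which reached the level filter only through the paclitaxel inputs. Cct7, Cct8, Cct5 and Hsp90aa1 lie at the upper right and Hspb2, Hspb6 and Dnajb4 at the lower left.

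All 3 Hsp90 genes rose in normal TRAP and Hsp90aa1 also rose in paclitaxel TRAP, though the Hsp90ab1 call turned to -0.09 (adjusted p = 0.783) under quantile normalization, which gives the top ranks of every library the same values. Hsp90aa1 (chr12:110690605-110702728), the stress-inducible cytosolic form, had 1559, 1986, 1070.3 and 839 CPM in paclitaxel TRAP, against 747, 682, 638 and 553 CPM in paclitaxel input. In normal ganglia it had 2626, 2699.8, 2487 and 2769.6 CPM in TRAP, against 813, 1126, 1048 and 817 CPM in input. Every TRAP library lay above every input of its condition, and both calls held under each alternative run (paclitaxel log2 change 0.99 (SE 0.18), adjusted p = 0.000636; normal log2 change 1.49 (SE 0.18), adjusted p = 4.57e-06). Hsp90ab1 had 9374, 9053, 7756 and 11687 CPM in paclitaxel TRAP and 6158, 7402, 6227 and 9122 CPM in paclitaxel input, groups that overlapped (log2 change 0.39 (SE 0.19), adjusted p = 0.127). Its levels were 17663, 14879, 17501 and 19894 CPM in normal TRAP and 10333, 7419.7, 10181 and 14614 CPM in normal input (log2 change 0.75 (SE 0.19), adjusted p = 0.00596). In the normal groups the ranges did not overlap, and the call was lost without the block on biosample (adjusted p = 0.0678), without the intensity trend (adjusted p = 0.0526) and with only biosamples 3, 4, 7 and 8 (0.61, adjusted p = 0.158). Hsp90b1 (GRP94), the Hsp90 of the endoplasmic reticulum, had 767, 766, 791 and 671 CPM in paclitaxel TRAP and 621, 697, 597 and 592 CPM in paclitaxel input (log2 change 0.26 (SE 0.17), adjusted p = 0.249). Normal TRAP held 1227, 1223, 1143 and 2478 CPM of it, and normal input 703, 716, 652 and 1063 CPM (log2 change 0.90 (SE 0.17), adjusted p = 0.000397), and biosample 4 was high in both fractions.

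**Figure D3:**
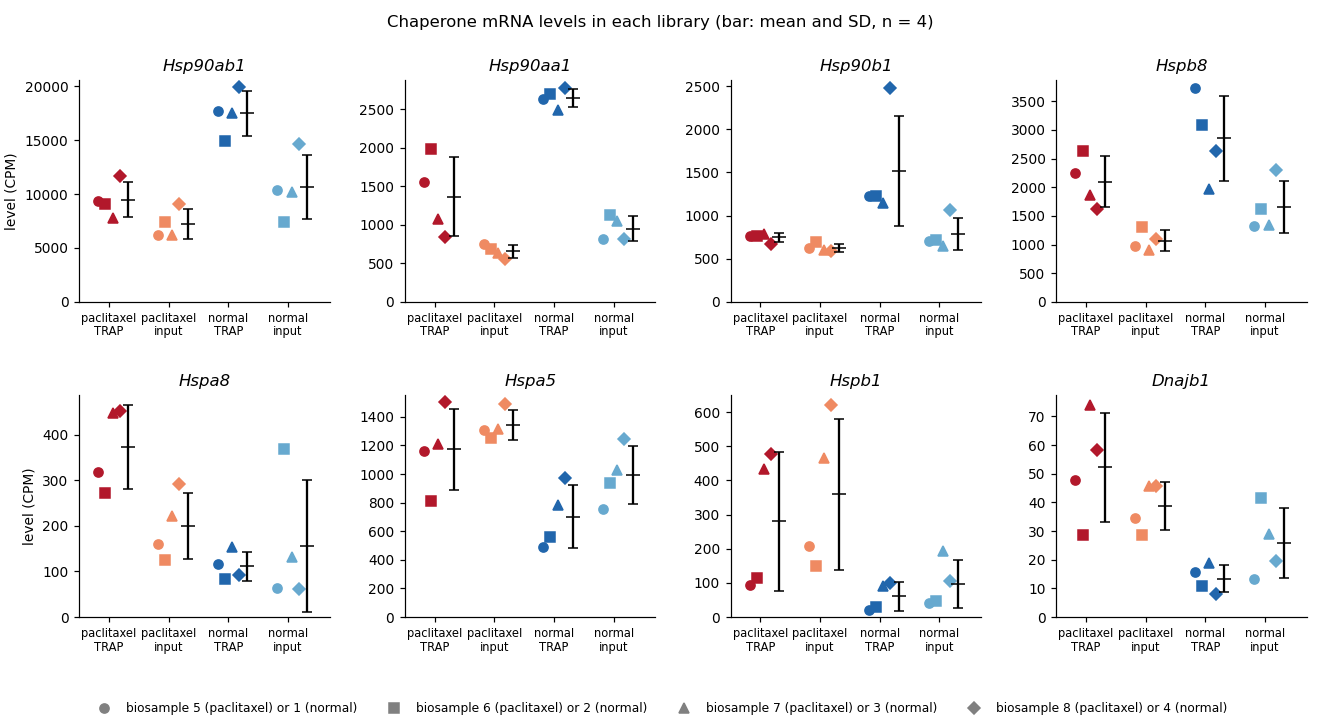
Level (CPM) of 8 members in each of 16 pooled libraries, by group; each marker is a biosample, and bars give the mean and SD (n = 4). Hsp90aa1 and Hspb8 lie higher in TRAP than in input after paclitaxel with no overlap, Hspa8 lies at 272 to 451 CPM in paclitaxel TRAP and 84.1 to 153 CPM in normal TRAP, and Hspb1 varies with the biosample in both fractions.

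Some subunit messages of the cytosolic chaperonin were higher in TRAP and others were not called. CCT is built from a fixed set of different subunits, each encoded by its own gene. The subunit gene Cct6a was not among the genes that the rule found, so counts and ratios of subunits leave it out. Of the 7 genes tested, 4 rose after paclitaxel (Cct4, Cct5, Cct7 and Cct8), 3 rose in normal ganglia (Cct5, Cct7 and Cct8), and 0 fell in either by limma. That is 57.1% and 42.9% of these genes higher, against 4.92% and 5.09% of all genes, and 23% and 24.7% of all genes were called lower. At an unadjusted p under 0.05, 0 were lower after paclitaxel and 1 in normal ganglia. Cct8 (chr16:87483326-87495873), the theta subunit, had 807, 966, 464 and 486 CPM in paclitaxel TRAP, against 355, 425, 339 and 399.6 CPM in paclitaxel input (log2 change 0.78 (SE 0.23), adjusted p = 0.0168). Normal TRAP held 5539.7, 5463, 1984 and 2101 CPM, against 979, 722, 622 and 1008 CPM in normal input (log2 change 2.04 (SE 0.23), adjusted p = 1.85e-06). The normal pulldowns of biosamples 1 and 2 were more than double those of biosamples 3 and 4, and all 4 lay above every input. After paclitaxel the Cct8 call was lost without biosample 5 (0.64, adjusted p = 0.111), without biosample 6 (0.64, adjusted p = 0.113) and without the block on biosample (0.78, adjusted p = 0.0869), and it was smallest with only biosamples 3, 4, 7 and 8 (0.37, adjusted p = 0.308). Cct8 overlaps Usp16 on the opposite strand, and the counting's use of strand is not given in the sources used here, so its reads are uncertain to that extent.

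Cct7, the eta subunit, rose in both conditions under every alternative run. It had 1397, 1392, 905 and 971 CPM in paclitaxel TRAP and 506, 557, 417 and 519 CPM in paclitaxel input (log2 change 1.20 (SE 0.20), adjusted p = 0.000248). In normal ganglia it had 2005, 2132, 1253 and 1388 CPM in TRAP and 370.1, 789, 539 and 707 CPM in input (log2 change 1.51 (SE 0.20), adjusted p = 1.24e-05), again with no overlap between the fractions. Cct5, the epsilon subunit, had 244, 267, 327 and 381 CPM in paclitaxel TRAP and 168, 158, 196 and 221 CPM in paclitaxel input (log2 change 0.70 (SE 0.18), adjusted p = 0.007). Levels of Cct5 were 658, 507, 432 and 800.0 CPM in normal TRAP and 196, 198, 204 and 365 CPM in normal input (log2 change 1.33 (SE 0.18), adjusted p = 1.67e-05). For Cct4, the delta subunit, the values were 208, 261, 206 and 152 CPM in paclitaxel TRAP and 98.7, 92.2, 117 and 130.2 CPM in paclitaxel input (log2 change 0.90 (SE 0.25), adjusted p = 0.00989), with no overlap, a call lost without biosample 5 (0.84, adjusted p = 0.0546) or 6 (0.70, adjusted p = 0.0927) and with only biosamples 3, 4, 7 and 8 (0.52, adjusted p = 0.209). Normal TRAP had 83.3, 109, 188 and 83.4 CPM of Cct4 and normal input 60.3, 181, 126 and 68.5 CPM, which overlapped (log2 change 0.15 (SE 0.25), adjusted p = 0.667).

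Tcp1 (CCT1), Cct2 and Cct3, the alpha, beta and gamma subunits, did not pass in either condition. Tcp1 had 35.8, 9.72, 133 and 134 CPM in paclitaxel TRAP and 48.1, 45.8, 72.1 and 88.4 CPM in paclitaxel input. It had 65.9, 60.9, 54.7 and 68.7 CPM in normal TRAP and 23.7, 40.9, 46.5 and 42.2 CPM in normal input. Its paclitaxel pulldowns spanned more than a 10-fold range, with biosamples 5 and 6 low, and in normal ganglia TRAP lay wholly above input (log2 change 0.73 (SE 0.37), adjusted p = 0.136). Cct2 had 101, 143, 127 and 129.9 CPM in paclitaxel TRAP and 127, 128, 135 and 118 CPM in paclitaxel input. It had 45.3, 122, 132 and 58.4 CPM in normal TRAP and 131, 108, 163 and 79.5 CPM in normal input. The fractions overlapped in both conditions for Cct2. The ratio of the most to the least abundant subunit message was 7.22 to 143 in paclitaxel TRAP libraries, 5.78 to 12.2 in paclitaxel inputs, 36.3 to 416 in normal TRAP libraries and 13.4 to 47.2 in normal inputs. In an assembled ring the subunits are equal in number, which these messages were not in any library. In single TRAP libraries the lowest subunit was at 9.72 CPM (Tcp1, biosample 6) or 13.1 CPM (Cct3, biosample 2), both well above 3 reads.

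**Figure D4:**
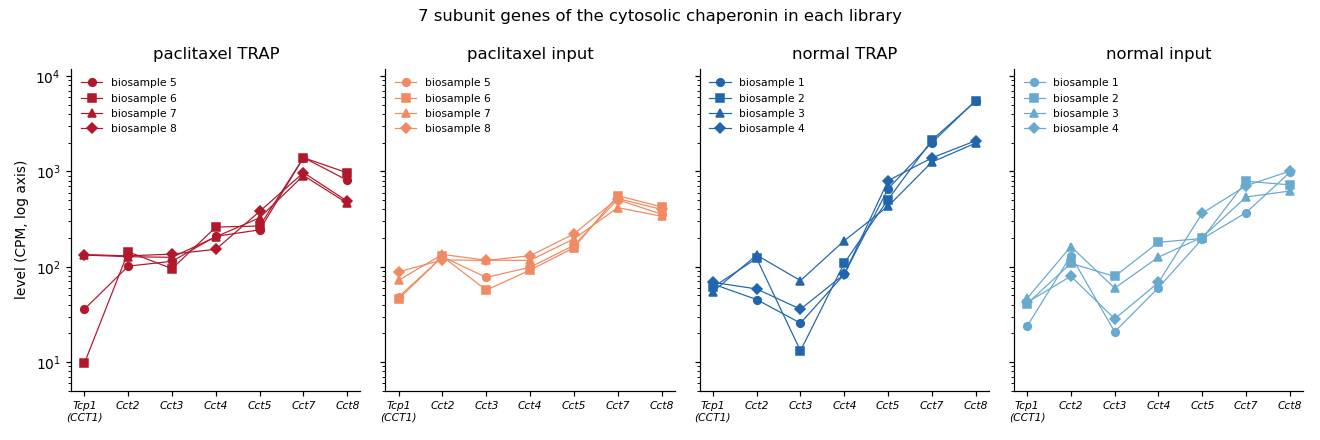
Level (CPM, log axis) of 7 subunit genes of the cytosolic chaperonin in each library, 1 line a biosample, by group. Cct8 lies at 1984 to 5539.7 CPM in normal TRAP and at 464 to 966 CPM in paclitaxel TRAP, while Tcp1, Cct2 and Cct3 stay at or under 163 CPM in all groups.

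In the Hsp70 family of 11 genes, 1 rose and 0 fell after paclitaxel by limma (1 higher and 2 lower at an unadjusted p under 0.05), and 1 rose and 2 fell in normal ganglia. Over all genes 4.92% rose and 23% fell after paclitaxel and 5.09% rose and 24.7% fell in normal ganglia, and 1 gene is 9.09% of this family. Hspa8 (Hsc70, chr9:40800984-40810087), the constitutive cytosolic Hsp70, had 317, 272, 448 and 451 CPM in paclitaxel TRAP, against 160.0, 125, 222 and 291 CPM in paclitaxel input (log2 change 0.94 (SE 0.31), adjusted p = 0.0269). Each of the 4 biosamples was higher in TRAP, although the ranges overlapped. The call was lost without biosample 5 (0.92, adjusted p = 0.0819), 6 (0.88, adjusted p = 0.0992) or 7 (0.91, adjusted p = 0.0881), and without the block (0.94, adjusted p = 0.101). Normal TRAP had 116, 84.1, 153 and 91.3 CPM and normal input 63.1, 369, 131 and 60.7 CPM, where the input of biosample 2 stood far above the others (log2 change -0.11 (SE 0.31), adjusted p = 0.8).

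Hspa5 (BiP), the Hsp70 of the endoplasmic reticulum, was the most abundant Hsp70 message. It had 1162, 811, 1212 and 1500.4 CPM in paclitaxel TRAP and 1307, 1252, 1317 and 1492 CPM in paclitaxel input. It had 487, 561, 786 and 972 CPM in normal TRAP and 756, 934, 1031 and 1242 CPM in normal input, and it fell in normal TRAP (log2 change -0.53 (SE 0.17), adjusted p = 0.0233), lower in each of the 4 biosamples although the ranges overlapped. That call was lost without biosample 1 (-0.49, adjusted p = 0.077), without biosample 2 (-0.46, adjusted p = 0.0707), without the block (adjusted p = 0.12), under median-ratio scaling (-0.09, adjusted p = 0.757) and with only biosamples 3, 4, 7 and 8 (-0.37, adjusted p = 0.289). Hspa9 (mortalin), the Hsp70 of mitochondria, had 297, 312, 121 and 332 CPM in paclitaxel TRAP and 271, 265, 292 and 324 CPM in paclitaxel input. It had 577, 689.7, 484 and 507 CPM in normal TRAP and 403, 257, 325 and 435 CPM in normal input. It rose in normal TRAP, where the fractions did not overlap (log2 change 0.68 (SE 0.23), adjusted p = 0.0287), a call lost without biosample 1 (0.74, adjusted p = 0.0555), 2 (0.44, adjusted p = 0.186) or 3 (0.72, adjusted p = 0.0612), without the block (adjusted p = 0.0704) and with only biosamples 3, 4, 7 and 8 (0.40, adjusted p = 0.279). Hspa12a, a distant Hsp70 relative, fell in normal TRAP under every alternative run. Its levels were 213, 169, 133 and 115 CPM in paclitaxel TRAP and 228, 215, 191 and 138 CPM in paclitaxel input. It had 17.3, 60.9, 137 and 35.8 CPM in normal TRAP and 105, 269, 216 and 73.4 CPM in normal input (log2 change -1.58 (SE 0.26), adjusted p = 0.000132), and each normal biosample was lower in TRAP than in its own input.

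The classical heat-inducible Hsp70 genes were low. Hspa1a had 0, 0, 3.07 and 3.78 CPM in paclitaxel TRAP and 4.09, 3.48, 5.89 and 8.11 CPM in paclitaxel input. It had 1.75, 4.47, 5.53 and 2.01 CPM in normal TRAP and 4.38, 5.02, 6.08 and 2.11 CPM in normal input. The fractions overlapped in both conditions (paclitaxel log2 change -1.55 (SE 0.59), adjusted p = 0.0505). Hspa1b had 6.42, 4.62, 4.24 and 3.59 CPM in paclitaxel TRAP and 4.60, 4.20, 8.22 and 8.26 CPM in paclitaxel input. Its levels were 0.050, 12.9, 1.81 and 0 CPM in normal TRAP and 1.39, 7.69, 3.66 and 0.230 CPM in normal input, with overlap in both conditions. The 2 genes are near-identical copies, so the division of reads between them is uncertain. Hspa2, Hspa4, Hspa12b, Hspa13 and both entries listed as Hspa14, whose loci overlap on the same strand, did not pass. In the Hsp110 group, Hspa4l fell in both conditions, with 69.8, 112, 51.7 and 66.9 CPM in paclitaxel TRAP and 132, 136, 129 and 95.0 CPM in paclitaxel input. It had 45.4, 56.5, 64.6 and 89.1 CPM in normal TRAP and 176, 143, 119 and 126 CPM in normal input (paclitaxel log2 change -0.75 (SE 0.26), adjusted p = 0.0341; normal log2 change -1.16 (SE 0.26), adjusted p = 0.00227). After paclitaxel its call was lost without biosample 5 (-0.69, adjusted p = 0.125), 7 (-0.56, adjusted p = 0.181) or 8 (-0.83, adjusted p = 0.0504) and without the block (-0.75, adjusted p = 0.0525), and it was smallest under median-ratio scaling (-0.43, adjusted p = 0.218). The normal call was lost with only biosamples 3, 4, 7 and 8 (-0.68, adjusted p = 0.107). Hsph1 (Hsp105), which carries a 3-unit match in its promoter, had 235, 246, 201 and 234 CPM in paclitaxel TRAP and 195, 180.4, 178 and 202 CPM in paclitaxel input. It had 259, 177, 271 and 201 CPM in normal TRAP and 164, 268, 233 and 144 CPM in normal input, and passed in no comparison.

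The small heat shock genes, which encode holdases that act without ATP, went in both directions. Hspb8 (Hsp22), a partner of BAG3 in chaperone-assisted autophagy, was the most abundant of the 6 and rose in both conditions. Paclitaxel TRAP held 2249.8, 2635, 1864 and 1619.5 CPM of it, against 979, 1307, 898 and 1093 CPM in paclitaxel input (log2 change 0.96 (SE 0.20), adjusted p = 0.00142), with no overlap and under every alternative run. Normal TRAP held 3730.3, 3083, 1960.4 and 2625 CPM, against 1329.8, 1625, 1345 and 2305 CPM in normal input (log2 change 0.79 (SE 0.20), adjusted p = 0.00494), a call lost without biosample 1 (0.55, adjusted p = 0.0606), under quantile normalization (0.45, adjusted p = 0.0958) and with only biosamples 3, 4, 7 and 8 (0.37, adjusted p = 0.316). Hspb6 (Hsp20) and Hspb2, both typical of muscle, were low in TRAP. Hspb6 had 0, 0, 1.79 and 3.40 CPM in paclitaxel TRAP and 5.01, 6.63, 11.2 and 15.3 CPM in paclitaxel input. It had 0.150, 0.450, 0 and 0.170 CPM in normal TRAP and 6.75, 9.81, 4.08 and 4.22 CPM in normal input, and the fractions did not overlap in either condition (paclitaxel log2 change -2.38 (SE 0.54), adjusted p = 0.00311; normal log2 change -2.54 (SE 0.54), adjusted p = 0.00158). The normal change was -1.05 (adjusted p = 0.0975) under quantile normalization and the paclitaxel one -2.01 (adjusted p = 0.0742) with only biosamples 3, 4, 7 and 8. Hspb2, which lies head to head with Cryab, had 0.070, 0, 3.49 and 8.98 CPM in paclitaxel TRAP and 13.2, 7.92, 18.2 and 19.4 CPM in paclitaxel input (log2 change -2.50 (SE 0.66), adjusted p = 0.00767). Hspb7, the cardiovascular small heat shock protein gene, was at 0 in 3 of 4 paclitaxel TRAP libraries and at 0.28 CPM in the other, against 2.55, 3.48, 1.34 and 1.22 CPM in paclitaxel input. Normal TRAP held 0.1, 2.50, 0.830 and 0.170 CPM of it and normal input 0.560, 0.940, 2.00 and 0 CPM, which overlapped. Since it reached the level filter only through the paclitaxel inputs, its difference there is given as values with no test. Hspb2, Hspb7 and Hspb11 were named after their values were seen. Hspb11 (IFT25), by function a subunit of intraflagellar transport, averaged 37.5 ± 27.0 CPM in paclitaxel TRAP, 25.8 ± 8.59 CPM in paclitaxel input, 16.0 ± 10.8 CPM in normal TRAP and 29.3 ± 11.1 CPM in normal input (SD, n = 4 each) and was not called. Skeletal muscle markers were also lower in TRAP: 6 of 8 fell in paclitaxel TRAP and 5 of 8 in normal TRAP (all genes, 23% and 24.7%). None was at 0 throughout a group, and their sum was 376 to 615 CPM in paclitaxel TRAP, 921 to 1465 CPM in paclitaxel input, 267 to 1940 CPM in normal TRAP and 347 to 2099 CPM in normal input. Hspb6 was at 0 to 0.450 CPM in normal TRAP, where 3 reads came to 0.112 to 0.502 CPM. That is too near the level of 3 reads to be set against the marker sums. Other lists fell as well: 11 of 12 myelinating Schwann cell markers in each condition, and 7 (paclitaxel) and 9 (normal) of 10 satellite glia markers. The part of muscle markers in the result was not tested.

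Hspb1, whose promoter is printed above, was present in both fractions. Its level was 94.7, 115, 432 and 478 CPM in paclitaxel TRAP and 207, 149, 465 and 619.9 CPM in paclitaxel input. It had 20.7, 29.2, 92.0 and 101 CPM in normal TRAP and 41.7, 46.0, 194 and 105 CPM in normal input. Biosamples 7 and 8, and likewise 3 and 4, were above the other pair of their group in both fractions. Hspb1 fell in normal TRAP (log2 change -0.69 (SE 0.23), adjusted p = 0.029), lower in each of the 4 biosamples. That call rests on the pairing, since the ranges overlapped: without the block on biosample the adjusted p was 0.398, and it was lost without biosample 1 (-0.59, adjusted p = 0.103), without biosample 3 (-0.56, adjusted p = 0.137), under median-ratio scaling (-0.26, adjusted p = 0.442), under quantile normalization (-0.39, adjusted p = 0.238) and with only biosamples 3, 4, 7 and 8 (-0.56, adjusted p = 0.11). After paclitaxel the change was -0.49 (SE 0.23, adjusted p = 0.115).

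Hspd1 (Hsp60) and Hspe1 (Hsp10) encode the barrel and the lid of the mitochondrial chaperonin, and their start sites share 1 promoter region with the 3-unit match shown above. Hspe1 was called higher after paclitaxel and Hspd1 lower in normal ganglia. Hspe1 had 160.2, 234, 177 and 109 CPM in paclitaxel TRAP, against 92.2, 71.1, 85.9 and 74.2 CPM in paclitaxel input (log2 change 1.02 (SE 0.30), adjusted p = 0.0144), and did not overlap. It lost the call without biosample 6 (0.79, adjusted p = 0.114) or 7 (1.02, adjusted p = 0.0511) and with only biosamples 3, 4, 7 and 8 (0.79, adjusted p = 0.0654). In normal ganglia Hspe1 had 115, 86.6, 133 and 81.0 CPM in TRAP and 42.3, 165, 72.4 and 40.3 CPM in input (log2 change 0.59 (SE 0.30), adjusted p = 0.133). Hspd1 had 436, 485, 470.2 and 647 CPM in paclitaxel TRAP and 545, 693, 685 and 884 CPM in paclitaxel input. It had 488, 701, 597 and 816 CPM in normal TRAP and 953, 673, 836 and 1156 CPM in normal input. It fell in normal TRAP (log2 change -0.47 (SE 0.18), adjusted p = 0.0475), and after paclitaxel its change was -0.46 (SE 0.18, adjusted p = 0.0582). The normal call was lost in 15 of 19 alternatives, among them every biosample left out but biosample 2, with values of -0.31 to -0.47 there and -0.03 under median-ratio scaling. The difference between Hspd1 and Hspe1 itself was not tested.

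Among 40 DnaJ genes, 1 rose and 3 fell after paclitaxel, and 2 rose and 4 fell in normal ganglia, with changes from -1.67 to 1.27 and from -1.88 to 1.34 over all 40. These counts are 2.5% and 7.5% of DnaJ genes after paclitaxel, against 4.92% and 23% of all genes, and 5% and 10% in normal ganglia, against 5.09% and 24.7% of all genes. Dnajc2 (MPP11, zuotin), which works at the ribosome exit site on nascent chains, rose in both conditions. It had 114, 134, 132 and 147 CPM in paclitaxel TRAP, against 90.4, 80.4, 72.2 and 66.4 CPM in paclitaxel input (log2 change 0.77 (SE 0.22), adjusted p = 0.0142). In normal ganglia it had 146, 156, 124 and 269.7 CPM in TRAP, against 77.3, 112, 80.9 and 118 CPM in input (log2 change 0.80 (SE 0.22), adjusted p = 0.0112). The fractions did not overlap in either condition. The paclitaxel call was lost without biosample 6 (0.78, adjusted p = 0.0513), 7 (0.74, adjusted p = 0.0549) or 8 (0.64, adjusted p = 0.0753), and the normal one without biosample 4 (0.67, adjusted p = 0.0597). Dnajc7 (TPR2), which binds both Hsp70 and Hsp90, rose in normal TRAP (log2 change 0.50 (SE 0.17), adjusted p = 0.031) and was named after its values were seen. Dnajb4 fell in both conditions, to 33.6, 33.7, 10.1 and 31.1 CPM in paclitaxel TRAP, against 72.1, 77.4, 93.4 and 81.1 CPM in paclitaxel input (log2 change -1.67 (SE 0.35), adjusted p = 0.00168). In normal ganglia it fell to 22.4, 21.2, 36.0 and 49.6 CPM in TRAP, against 97.3, 73.2, 78.1 and 71.7 CPM in input (log2 change -1.36 (SE 0.35), adjusted p = 0.00627). The paclitaxel call held under every alternative run, and the normal one was lost under median-ratio scaling (-0.93, adjusted p = 0.0522), with only biosamples 3, 4, 7 and 8 (-0.81, adjusted p = 0.128) and with subsample 1 of biosample 7 alone (-1.36, adjusted p = 0.105).

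Dnaja1, a main cytosolic partner of Hsc70, was lower in TRAP in normal ganglia under every alternative run. It had 499, 411, 566 and 559.9 CPM in paclitaxel TRAP and 792, 765, 630.1 and 661 CPM in paclitaxel input. It had 307, 333, 396 and 178 CPM in normal TRAP and 725, 796, 642 and 505 CPM in normal input, with no overlap between fractions in either condition (paclitaxel log2 change -0.49 (SE 0.19), adjusted p = 0.0507; normal log2 change -1.17 (SE 0.19), adjusted p = 8.35e-05). Dnajc5 (cysteine string protein), a synaptic vesicle chaperone, also fell in normal TRAP (log2 change -0.95 (SE 0.25), adjusted p = 0.00758), a call lost without biosample 2 (-0.68, adjusted p = 0.0576), without the block (adjusted p = 0.0586), under median-ratio scaling (-0.52, adjusted p = 0.135), under quantile normalization (-0.65, adjusted p = 0.0549) and with only biosamples 3, 4, 7 and 8 (-0.40, adjusted p = 0.343). Dnajc1, an endoplasmic reticulum membrane cochaperone, fell after paclitaxel, with 17.2, 11.2, 28.7 and 31.2 CPM in paclitaxel TRAP and 47.7, 46.6, 51.6 and 47.3 CPM in paclitaxel input (log2 change -1.20 (SE 0.35), adjusted p = 0.0134). Without biosample 5 its change was -1.12 (adjusted p = 0.0606), without biosample 6 -0.94 (adjusted p = 0.0931), without the block -1.20 (adjusted p = 0.058), under median-ratio scaling -0.89 (adjusted p = 0.0602) and with only biosamples 3, 4, 7 and 8 -0.71 (adjusted p = 0.178). Dnajc13, an endosomal protein, was called lower after paclitaxel, with 34.7, 62.4, 45.8 and 66.9 CPM in TRAP and 103, 93.2, 84.8 and 78.5 CPM in input. Dnajc19, of the mitochondrial import motor, was called lower in normal ganglia, with 0.400, 4.29, 13.5 and 12.7 CPM in TRAP and 23.0, 35.9, 16.0 and 16.9 CPM in input. Both sat near the threshold (adjusted p = 0.0459 and 0.0467), and 12 and 14 of 19 alternatives ended those calls. Among them were biosamples 3, 5, 6 and 7 left out for Dnajc13 (-0.56 to -0.88) and biosamples 1, 2, 7 and 8 for Dnajc19 (-1.14 to -1.88). The Dnajc13 change was smallest under median-ratio scaling (-0.49, adjusted p = 0.222), and that of Dnajc19 with only biosamples 3, 4, 7 and 8 (-0.31, adjusted p = 0.755), with -0.91 (adjusted p = 0.263) under quantile normalization.

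The second comparison asked which members differed between paclitaxel and normal ganglia within a fraction. In TRAP, 3 of 74 members rose (all genes called higher, 1.33%) and 1 fell (all genes called lower, 0.492%), out of 1.82% of all genes called in either direction. Hspa8, Dnajc5 and Cct3 rose and Cct8 fell. In input 0 rose by limma (all genes, 1.46%) and 1 fell (all genes, 0.183%), again Cct8. At an unadjusted p under 0.05, 12 members were higher and 9 lower in TRAP, where 16.9% of all genes passed in either direction, and 10 were higher and 4 lower in input, where 19.1% of all genes did. The median log2 change over members was 0.24 in TRAP and 0.18 in input, against 0.17 and 0.14 over all genes. Counts of this size moved with single biosamples: without biosample 2, 7 or 8, 0 members passed in TRAP by limma, without biosample 1 only Hspa8 did, without biosample 4 or 5, 1 rose and 1 fell, and without biosample 3, 5 rose and 2 fell. In input 5 rose without biosample 2, 1 rose without biosample 3 or 6, and Cct8 was lost without biosample 1, 5, 7 or 8. Over all genes 656 rose and 175 fell in input without biosample 2, against 207 and 26 in the main fit. In TRAP 367 of all genes rose and 124 fell without biosample 3, against 189 and 70, and 0 passed without biosample 2 or 8. In TRAP 0 passed with no level filter, without the intensity trend, or with only biosamples 3, 4, 7 and 8, whereas 6 rose and 5 fell with a filter at 5 CPM. Calls over all genes moved likewise: 0 passed in the former runs. At the 5 CPM filter 525 rose and 204 fell of 11719, against 189 and 70 of 14214 in the main fit. Under median-ratio scaling 2 rose and 3 fell in TRAP, 40% of called members higher against 75% on the deposited scale. Over all called genes 46.4% were higher under that scaling, against 73%.

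**Figure D5:**
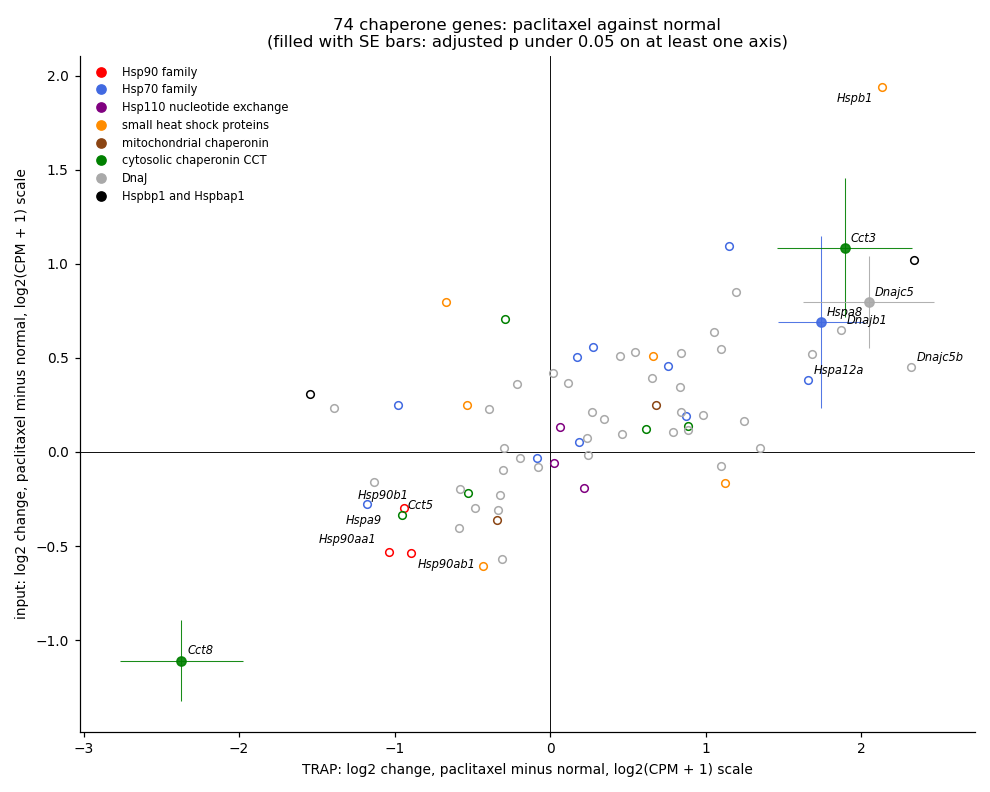
Log2 change of paclitaxel minus normal on the log2(CPM + 1) scale for the 74 members in TRAP (horizontal) and in input (vertical), coloured by family; filled points with SE bars passed an adjusted p of 0.05 on at least 1 axis, and other labelled points did not. Cct8 lies at the lower left, at -2.37 and -1.11, and Hspb1 at the upper right, at 2.14 and 1.94.

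Cct8 was the member with the largest fall. It had 681 ± 246 CPM in paclitaxel TRAP and 3772 ± 1998 CPM in normal TRAP (SD, n = 4 each; log2 change -2.37 (SE 0.39), adjusted p = 0.0135), and 379.5 ± 39.6 CPM in paclitaxel input and 833 ± 190.2 CPM in normal input (SD, n = 4 each; log2 change -1.11 (SE 0.22), adjusted p = 0.0237). All 4 paclitaxel libraries lay below all 4 normal ones in each fraction. In TRAP the change stayed at -2.05 to -2.62 over 18 alternatives, but the call was lost without biosample 1 (-2.13, adjusted p = 0.0532), 2 (-2.14, adjusted p = 0.0758), 7 (-2.21, adjusted p = 0.0814) or 8 (-2.23, adjusted p = 0.131). In input it was lost without biosample 1 (-1.02, adjusted p = 0.0878), 5 (-1.08, adjusted p = 0.0817), 7 (-1.06, adjusted p = 0.13) or 8 (-1.14, adjusted p = 0.0772). Of the other subunits Cct3 rose in TRAP, with 114, 95.3, 125 and 136 CPM in paclitaxel TRAP, against 25.6, 13.1, 71.5 and 35.8 CPM in normal TRAP (log2 change 1.90 (SE 0.43), adjusted p = 0.0426), and had 77.2, 56.8, 117 and 117 CPM in paclitaxel input, against 20.7, 79.0, 59.6 and 28.4 CPM in normal input (log2 change 1.09 (SE 0.37), adjusted p = 0.139). Its TRAP call was lost without biosample 1, 2, 4, 5, 6, 7 or 8, each in turn (1.51 to 1.99, adjusted p = 0.0611 to 0.179). Cct5 was wholly lower in paclitaxel TRAP without passing (log2 change -0.96 (SE 0.26), adjusted p = 0.0735).

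In TRAP the lowest paclitaxel value of Hspa8, 272 CPM in biosample 6, lay above its highest normal value, 153 CPM in biosample 3. The group levels were 372 ± 91.3 CPM in paclitaxel TRAP and 111 ± 31.0 CPM in normal TRAP (SD, n = 4 each; log2 change 1.74 (SE 0.28), adjusted p = 0.0135). The call was lost without biosample 2 (1.62, adjusted p = 0.0662), 7 (1.64, adjusted p = 0.0814) or 8 (1.64, adjusted p = 0.118). In input the groups overlapped, with biosample 2 at 369 CPM (log2 change 0.69 (SE 0.46), adjusted p = 0.434). Dnajc5 (chr2:181520485-181555133) had 211, 186, 263 and 172 CPM in paclitaxel TRAP, against 26.2, 37.9, 137 and 41.0 CPM in normal TRAP (log2 change 2.05 (SE 0.42), adjusted p = 0.0275). In input it had 165, 156, 179.9 and 166 CPM after paclitaxel, against 63.5, 132, 131 and 75.3 CPM in normal ganglia (log2 change 0.80 (SE 0.24), adjusted p = 0.107). Paclitaxel libraries lay above normal ones in both fractions, and the normal TRAP of biosample 3 was nearest to them. The TRAP call was lost without biosample 1, 2, 4, 5, 7 or 8 (1.76 to 2.14, adjusted p = 0.0822 to 0.143).

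Several members with differences of this size did not pass. Hspb1 (chr5:135887919-135889563) had 280.2 ± 203 CPM in paclitaxel TRAP and 60.7 ± 41.7 CPM in normal TRAP (SD, n = 4 each; log2 change 2.14 (SE 0.60), adjusted p = 0.0815), and 360.1 ± 221 CPM in paclitaxel input and 96.8 ± 71.0 CPM in normal input (SD, n = 4 each; log2 change 1.94 (SE 0.49), adjusted p = 0.0568). In each fraction the ranges overlapped, and biosamples 5 and 6 lay well below 7 and 8. In input it passed without biosample 3 (2.37, adjusted p = 0.0222), without biosample 6 (2.29, adjusted p = 0.0316) and with only biosamples 3, 4, 7 and 8 (1.90, adjusted p = 0.034). Dnajb1 (Hsp40), the DnaJ partner of inducible Hsp70, had 47.9, 28.6, 74.1 and 58.3 CPM in paclitaxel TRAP and 15.7, 10.9, 18.8 and 8.20 CPM in normal TRAP, groups that did not overlap (log2 change 1.87 (SE 0.48), adjusted p = 0.0648). In input it had 34.6, 28.7, 45.6 and 45.6 CPM after paclitaxel and 13.4, 41.5, 29.1 and 19.7 CPM in normal ganglia, which did (log2 change 0.65 (SE 0.31), adjusted p = 0.267). Dnajb9 (ERdj4), induced in the unfolded protein response, had 20.7, 23.2, 26.4 and 16.7 CPM in paclitaxel input and 10.2, 15.1, 14.3 and 7.74 CPM in normal input (log2 change 0.85 (SE 0.27), adjusted p = 0.113) and passed without biosample 2 (0.98, adjusted p = 0.0434). Hspbp1, a nucleotide exchange factor of Hsp70, and Dnajc5b, a relative of cysteine string protein, had the highest changes in TRAP without passing and were named after their values were seen. Hspbp1 had 17.1, 11.7, 88.3 and 53.2 CPM in paclitaxel TRAP and 6.24, 0.340, 14.1 and 10.6 CPM in normal TRAP (log2 change 2.34 (SE 0.89), adjusted p = 0.195). Dnajc5b had 1.90, 3.94, 12.6 and 4.92 CPM in paclitaxel TRAP and 0.050, 0.040, 0.460 and 0.170 CPM in normal TRAP (log2 change 2.32 (SE 0.67), adjusted p = 0.0863).

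The Hsp90 genes had the opposite sign in TRAP, again without passing. Hsp90aa1 averaged 1364 ± 512 CPM in paclitaxel TRAP and 2646 ± 121 CPM in normal TRAP (SD, n = 4 each; log2 change -1.03 (SE 0.30), adjusted p = 0.0888), Hsp90ab1 9467 ± 1636 CPM and 17484 ± 2052 CPM (log2 change -0.89 (SE 0.38), adjusted p = 0.25), and Hsp90b1 749 ± 53.1 CPM and 1518 ± 641 CPM (log2 change -0.94 (SE 0.28), adjusted p = 0.0959). For each of the 3 genes every paclitaxel TRAP library was below every normal one, as was true of 3.57% of all genes, and the sign of Hsp90ab1 turned under quantile normalization (0.09). Over all members, 6 lay wholly above (all genes, 6.73%) and 7 wholly below (all genes, 3.57%) in TRAP, and 4 lay wholly above (8.16%) and 3 wholly below (3.14%) in input. The summed level of 11 pan-neuronal markers was also lower after paclitaxel, at 15792 to 23161 CPM in paclitaxel TRAP and 25935 to 46905 CPM in normal TRAP, and 13045 to 15036 CPM in paclitaxel input and 18026 to 21020 CPM in normal input. Uchl1 alone averaged 7446 CPM in paclitaxel TRAP and 18685 CPM in normal TRAP, and 2715 CPM in paclitaxel input and 6021 CPM in normal input. In TRAP 0 of the 11 rose and 1, Nefm, fell by limma (1 higher and 4 lower at an unadjusted p under 0.05). The median log2 change of the 11 in TRAP was -0.06 and 5 of 11 were positive, so the lower sum comes from abundant markers and not from most of the list. Nociceptor markers summed to 7982 to 9936 CPM in paclitaxel TRAP and 7975 to 10218 CPM in normal TRAP. Satellite glia markers summed to 509 to 575 CPM in paclitaxel TRAP and 310 to 543 CPM in normal TRAP, and Fabp7 rose in paclitaxel input (log2 change 1.99, adjusted p = 0.0226). The part of these lists in the results was not tested, and in whole ganglia fewer cells of a type cannot be told apart from less RNA per cell.

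The third comparison asked whether paclitaxel changed the level in TRAP relative to input. By limma 0 of 74 members passed in either direction (all genes, 0.162% higher and 0.0281% lower). At an unadjusted p under 0.05, 7 were higher and 6 lower, against 11.3% of all genes in either direction. The members with the lowest p were Cct8 -1.26 (SE 0.33, adjusted p = 0.105), Dnajc5 1.25 (SE 0.36, adjusted p = 0.136), Hspa12a 1.27 (SE 0.37, adjusted p = 0.143) and Hspa9 -0.90 (SE 0.33, adjusted p = 0.27). Cct8 passed without biosample 4 (-1.59, adjusted p = 0.0321) and Dnajc5 without biosample 3 (1.59, adjusted p = 0.0357). So the larger rise of Cct8 in normal pulldowns (2.04) than in paclitaxel pulldowns (0.78) was not called as a difference between conditions.

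Genes that work with these chaperones were counted from set lists. For all genes the shares called were 4.92% higher and 23% lower after paclitaxel and 5.09% higher and 24.7% lower in normal ganglia. Of 16 Hsp90 cochaperones, 2 rose and 1 fell after paclitaxel, and 1 rose and 2 fell in normal ganglia. Stip1 (HOP), which joins Hsp70 to Hsp90, rose in both (log2 change 0.95 and 0.66). Sugt1, a kinetochore and Hsp90 adaptor, rose after paclitaxel (0.81), Ahsa2 fell in both (-0.68 and -0.67), and Cdc37l1 fell in normal ganglia (-1.02). Of 14 Hsp70 cochaperones and exchange factors, Stub1 (CHIP), the ubiquitin ligase that takes chaperone clients to the proteasome, rose in both (1.26 and 1.07), while Grpel2 (-1.95) and Sgtb (-1.84) fell in normal ganglia. Prefoldin hands actin and tubulin chains to CCT, and of 9 prefoldin and CCT-assisting genes Pfdn6 (1.00 and 1.68) and Pfdn5 (0.59 and 0.94) rose in both conditions. Pfdn2 rose (0.96) and Vbp1 (prefoldin 3) fell (-0.97) in normal ganglia. Of 4 genes for heat shock factors and their binding protein, only Hsf1 was called, lower in normal TRAP (-1.65), at 0.05 ± 0.0707 CPM in normal TRAP and 2.67 ± 2.05 CPM in normal input (SD, n = 4 each), so that normal TRAP held it at or under the level of 3 reads. In the remaining list of 7 genes, 6 chaperones or cochaperones and Hspg2, 1 rose and 3 fell after paclitaxel and 2 rose and 4 fell in normal ganglia. Hspg2 encodes perlecan, a basement membrane proteoglycan and not a chaperone, and was 1 of those that fell in each condition (-1.77 and -0.93). Cryab (-1.74 and -2.11), the alpha-B crystallin that neighbours Hspb2, and Serpinh1 (Hsp47) (-2.06 and -2.06), the collagen chaperone, fell in both conditions. Of 9 fibroblast markers, 8 also fell after paclitaxel and 7 in normal ganglia, as did 11 of 12 myelinating Schwann cell markers in each condition. The fibroblast markers summed to 484 to 1259 CPM in paclitaxel TRAP and 3577 to 5450 CPM in paclitaxel input. In normal ganglia they summed to 473 to 1187 CPM in TRAP and 2098 to 4327 CPM in input. The part of these markers in the Serpinh1 result was not tested. Between paclitaxel and normal ganglia 0 genes of these 5 lists passed by limma in TRAP (11 higher and 9 lower at an unadjusted p under 0.05) or in input (7 higher and 4 lower).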

How the data were processed

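The authors deposited 1 table of normalized values, called TPM in its headers. The deposited values are read here as CPM, since the authors' columns each sum to about 1000000 and show no division by gene length. Of the values, 98.2% to 99.6% of those above 0 and up to 100 reads in each library are whole multiples of 1 step within 0.0051 CPM. Libraries were made from 3′ ends with the QuantSeq kit after ribosomal RNA removal, per the labels' protocols. Per the submitters' processing notes, the genome was GRCm38.p4 with gene models of GENCODE vM10, and the tools named are Cufflinks 2.2.1, Bowtie2 2.2.9, FastQC 0.11.5 and TopHat2 2.1.1. Read counts were not used as such, and whether counting used strand is not given in the sources used here. Of 74 members, 22 overlap a gene on the same strand and 32 a gene on the other, so their reads are uncertain to that extent. Gene coordinates are those of GENCODE vM21 (GRCm38).

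Values of the subsamples of biosample 7 were averaged, and 2 columns of merged values were not used. Genes that reached 1 CPM in 4 or more of 16 pooled libraries were tested on log2(CPM + 1), which understates changes of low genes, with limma 3.58.1 in R 4.3.3 with an intensity trend, and p-values were adjusted by Benjamini-Hochberg over all 14214 genes. Called, rose and fell mean an adjusted p under 0.05. TRAP against input in each condition and the interaction were fitted on all 16 libraries with the biosample as a block, since both fractions of a biosample come from 1 homogenate, per the series' design text. Deviations from the group means of the fractions correlated at 0.05 to 0.38 within the 8 biosamples. Paclitaxel against normal was fitted within TRAP and within input, where no block is possible. Intervals of 3 reads cover counting error only.

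Members named with values, other than those said to be named after their values were seen, were a fixed set of best-known genes, then per comparison and direction up to 8 called members with the largest change, a mean of at least 5 CPM and no overlap, and, where fewer than 4 passed, the 4 with the lowest p. Members, gene lists and markers were chosen with earlier results of these data known. Alternatives were other pseudocounts, filters and scalings, each subsample of biosample 7, no trend, no block and each biosample left out. A fit with only biosamples 3, 4, 7 and 8 was added after seeing the data. The method was also run on simulated data in which libraries varied independently, with no effect of biosample. That run therefore does not bear on the pairing. Tables were handled with Python 3.11.15 and pandas 2.3.3.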

Additional observations from a re-analysis of the deposited data

Results flagged for a closer look

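Among 32 named members, 128 groups of 4 libraries were examined for a library far from the other 3, and 5 were found, where chance alone gives about 1 in 20, or 6.4. Hspa9 was at 120.5 CPM in paclitaxel TRAP of biosample 7, below the other paclitaxel TRAP libraries. Dnajb4 was at 10.1 CPM in the same library, likewise below the others. Hsp90b1 was at 2477.8 CPM in normal TRAP of biosample 4, above the other normal TRAP libraries. Cct5 was at 364.7 CPM in normal input of biosample 4, above the other normal inputs. Hspa4l was at 95.0 CPM in paclitaxel input of biosample 8, below the other paclitaxel inputs.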

How the results depend on the processing

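Of 45 gene results, 38 were called, and 11 of these kept their direction and call under every alternative run. Over 717 recomputed values of called results, 548 kept both, 168 kept the direction without passing and 1 turned: Hsp90ab1 in normal TRAP against normal input, at -0.093 under quantile normalization, which by construction gives equal ranks equal values. The other causes were not tested. A planned count test on recovered reads was not run.

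Counts of members moved as follows. In paclitaxel TRAP against paclitaxel input, 16 rose and 4 fell under median-ratio scaling, 4 rose without the trend, and 2 fell with only biosamples 3, 4, 7 and 8. In normal TRAP against normal input, 20 rose and 4 fell under median-ratio scaling, 6 fell under quantile normalization or with subsample 1 of biosample 7 alone, and 4 fell with only biosamples 3, 4, 7 and 8. In paclitaxel TRAP against normal TRAP, 2 fell with a pseudocount of 0.1, 0 rose and 0 fell with no level filter, without the trend or with only biosamples 3, 4, 7 and 8, 6 rose and 5 fell with a filter at 5 CPM, 3 fell under median-ratio scaling, 5 rose and 3 fell under quantile normalization, and 1 rose with subsample 1 of biosample 7 alone. In input, 0 fell with no level filter, and 1 rose and 0 fell with only biosamples 3, 4, 7 and 8. Calls over all genes moved too. Under median-ratio scaling 39.3% (paclitaxel) and 45.1% (normal) of calls in TRAP against input were higher, against 17.6% and 17.1% in the main fit. With a filter at 5 CPM 525 of 11719 genes rose and 204 fell between TRAP groups, against 189 and 70 of 14214. Without biosample 2, 656 of all genes rose and 175 fell between inputs, against 207 and 26.

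Without the replicate block, which drops the pairing of TRAP and input by biosample, 7 rose and 4 fell after paclitaxel and 7 rose and 5 fell in normal ganglia. With 1 biosample left out at a time, 4 to 9 rose and 2 to 10 fell in paclitaxel TRAP against input, 7 to 10 rose and 8 to 10 fell in normal TRAP against input, 0 to 5 rose and 0 to 2 fell between TRAP groups, 0 to 5 rose and 0 to 1 fell between inputs, and 0 to 1 passed in each direction in the interaction. Median-ratio scaling moved the median of all genes by 0.27 and 0.33 in TRAP against input (paclitaxel, normal) and by -0.16 and -0.09 between conditions (TRAP, input), and quantile normalization by 0.60, 0.66, -0.18 and -0.17.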
